A study of Homo sapiens with 4 samples.

Results

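Tubulins are the proteins that microtubules are built from. An α- and a β-tubulin fold with the help of chaperones and cofactors, join into a dimer and add to the ends of microtubules, while γ-tubulin sits in ring complexes from which microtubules are nucleated. Human cells carry several closely related α- and β-tubulin genes, and the amount of tubulin is autoregulated: when free dimers accumulate, the mRNAs that are being translated into tubulin are degraded. The genes have similar coding sequences, some pairs more than others, and differ more in their UTRs.

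The 10 tubulins examined were chosen by gene name, TUBA1A, TUBA1B and TUBA1C for α-tubulin, TUBB, TUBB2A, TUBB2B, TUBB3, TUBB4B and TUBB6 for β-tubulin and TUBG1 for γ-tubulin. Of these, 8 had a row, each in all 4 libraries, among 9271 transcripts listed in any library and 8568 listed in all of them. TUBA1A and TUBB3 were not analysed here. The libraries are ribosome profiling libraries of HEK293T, a human embryonic kidney cell line that carries a viral large T antigen. Untreated cells (libraries A and B) were compared with cells kept for 24 hr in 500 µg/mL G418, an aminoglycoside antibiotic that acts on the ribosomal decoding site and raises readthrough of termination codons (libraries A and B). All cells were of this 1 line. Reads on mRNAs ran from 2440204 in untreated B to 6082600 in untreated A, with 5677910 and 4763858 in G418 A and B, so untreated B limits the precision of low values.

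Each transcript has values of these kinds. One is the number of ribosome protected fragments (RPFs) on the CDS, given as counts or as RPKM, which scales reads to the length of the region and the size of the library. Another is the ribosome readthrough score (RRTS), the read density from the normal termination codon (NTC) to the next in-frame termination codon of the 3′UTR (3′TC), divided by the CDS density and given here in percent. The last is the number of 5′UTR reads per 100 CDS reads.

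The sequences around the NTC are shown because readthrough is read out at this position and the region behind it is what sets the paralogs apart. Each line holds 30 nt from hg38, 5′ to 3′, with the NTC in capitals.

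TUBA1B: ggagaggaatacTAAttatccattcctttt
TUBA1C: ggtgaagagtatTAAcctgtgtgctgtact
TUBB: gaagaggaggccTAAggcagagcccccatc
TUBB2A: gaggacgaggctTAAaaacttctcagatca
TUBB2B: gaggacgaggcgTAGatgcccccgcgagac
TUBB4B: gaggaggtggccTAGagccttcagtcactg
TUBB6: gcaacccccgctTGAagacagagcagacaa
TUBG1: acccaggagcagTGAgtcccccaggacagg

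The α-tubulin windows lie on chromosome 12, at chr12:49127943-49127972 on the minus strand for TUBA1B and at chr12:49273213-49273242 on the plus strand for TUBA1C. On chromosome 6 lie the windows of TUBB (chr6:30724383-30724412, plus strand), TUBB2A (chr6:3153848-3153877, minus strand) and TUBB2B (chr6:3224736-3224765, minus strand). The others are TUBB4B (chr9:137243542-137243571), TUBB6 (chr18:12337169-12337198) and TUBG1 (chr17:42615027-42615056), all on the plus strand. In each transcript the NTC lay in the last exon, exon 4 of 4, or exon 11 of 11 in TUBG1, and no intron interrupted the 3′UTR. TUBA1B, TUBA1C, TUBB and TUBB2A end in UAA, TUBB2B and TUBB4B in UAG, and TUBB6 and TUBG1 in UGA. The closest pair, TUBB2A and TUBB2B, shared 98.1% of aligned CDS bases and yet used different stop codons followed by unlike 3′UTRs. TUBA1B and TUBA1C shared 97.3% of CDS bases and the stop codon, and differed at the next base, U in TUBA1B and C in TUBA1C. The other β-tubulin pairs, TUBB6 left out, shared 84.6% to 87.2% of aligned CDS bases.

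The region read for RRTS differed in length. From the NTC to the next in-frame 3′TC there were 9 sense codons in TUBB2A, 19 in TUBA1B and in TUBG1, 23 in TUBB2B, 24 in TUBA1C and 43 in TUBB. TUBB4B and TUBB6 had no in-frame 3′TC in their 3′UTRs, so the whole of it, 50 and 14 codons, was used. For these transcripts the length behind the deposited RRTS is 6 nt shorter than the counted region, as in all 446 transcripts without a 3′TC, and with the counted length TUBB4B's scores would be 4.14% lower.

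How specific a read can be differed by region, since the authors kept 1 alignment of a read that maps to several places. Of all 28 nt windows of the TUBA1B CDS, 12% occurred nowhere else in the genome or in annotated transcripts. In TUBA1C the share was 24.3%, in TUBB2A 14.9% and in TUBB2B 17.9%. TUBA1B shared 62.4% of its CDS windows with TUBA1A, and TUBB2A shared 77.3% of its own with TUBB2B, so CDS values of these genes cannot be assigned to 1 gene. In TUBG1, 50.3% of CDS windows were its own and 45.4% were shared with TUBG2, the other γ-tubulin gene.

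From the NTC to the next 3′TC the picture turned for most genes. All windows of TUBB2A and TUBB2B were specific there, as were 96.3% in TUBA1B, 90.7% in TUBG1 and 88.4% in TUBA1C. TUBB was the exception among the UAA genes, with 24.6% of windows specific in this region against 38.9% in the CDS, and TUBB4B had 59.7% against 71.9%. The pseudogene TUBBP1 held 50.5% of the TUBB CDS windows. For TUBB and TUBB4B the 3′UTR up to the 3′TC was therefore the less specific region by this measure, and in the 5′UTR the specific share was 92.8% for TUBB and 100% for TUBB4B.

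**Figure D1:**
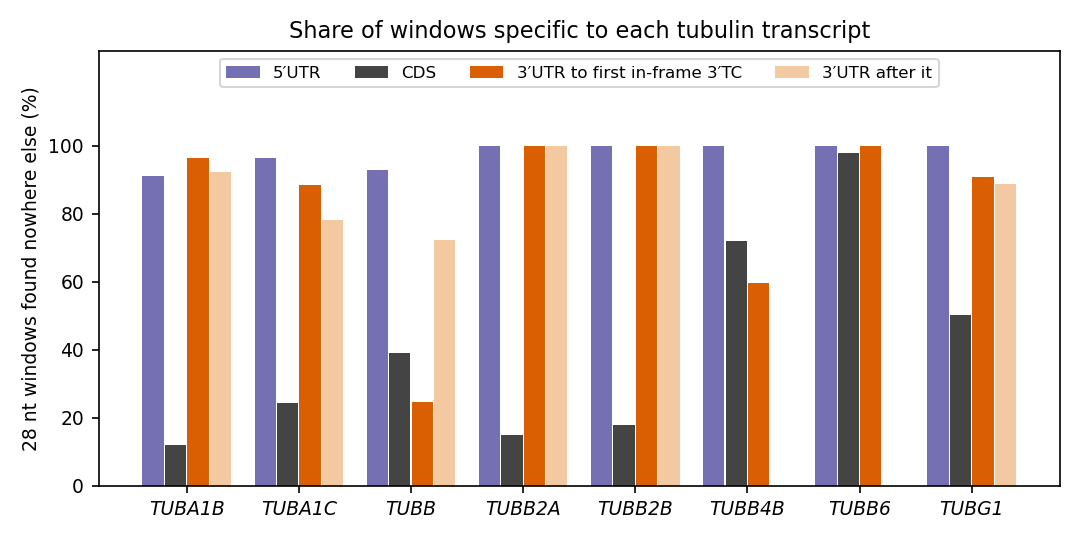
Percentage of 28 nt windows (y axis, bars from 0) of each tubulin transcript that occur at no other place in the genome and in no transcript of another gene, by region of the transcript (colours). The CDS bars are the lowest for TUBA1B, TUBA1C, TUBB2A, TUBB2B and TUBG1, whereas in TUBB and TUBB4B the 3′UTR before the 3′TC is lower still. TUBB4B and TUBB6 have no in-frame 3′TC and so no bar for the region behind it.

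Ribosome density on the coding sequences came first. The most heavily translated tubulin was TUBB, the main β-tubulin of dividing cells, and the CDS reads of TUBB, TUBB4B and TUBA1C were lower in G418-treated cells. Less mRNA, fewer ribosomes on each mRNA and fewer cells that express a gene cannot be told apart in these libraries. In RPKM, the CDS density of TUBB was 1964 and 1861 in untreated A and B and 1592 and 1472 in G418 A and B. That of TUBB4B, a widely expressed β-tubulin, was 564 and 581 in untreated and 462 and 425 in G418 cells. For both, each G418 library lay below each untreated library. TUBA1C, an α-tubulin, measured 927 and 931 RPKM in untreated and 808 and 753 in G418 cells. TUBA1B, the α-tubulin with the highest density, measured 1302 and 1368 in untreated and 1222 and 1158 in G418 cells. In the α-tubulins too the groups did not overlap. With 2 against 2 libraries, groups that do not overlap reach an exact two-sided permutation p of 0.333, so overlap is given as description only. The share of all transcripts without overlap was not counted.

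The other tubulins were translated at much lower density. TUBB2A measured 70.0 and 73.1 RPKM in untreated and 67.2 and 62.9 in G418 cells. Its near twin TUBB2B measured 95.7 and 100.5 in untreated and 96.4 and 82.1 in G418 cells. The TUBB2A groups did not overlap and the TUBB2B groups did. TUBG1, the γ-tubulin that nucleates microtubules, measured 101 and 91.5 RPKM in untreated and 114 and 107 in G418 cells, the only tubulin with both G418 libraries above both untreated ones. TUBB6 measured 50.1 and 44.9 in untreated and 52.3 and 47.6 in G418 cells, which overlap. The TUBB6 row is a short transcript with a CDS of 348 nt. Of these, 277 nt lie in the 1341 nt CDS of the full-length transcript, and its 3′UTR lies outside that transcript, so TUBB6 values describe mainly the start of the CDS.

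**Figure D2:**
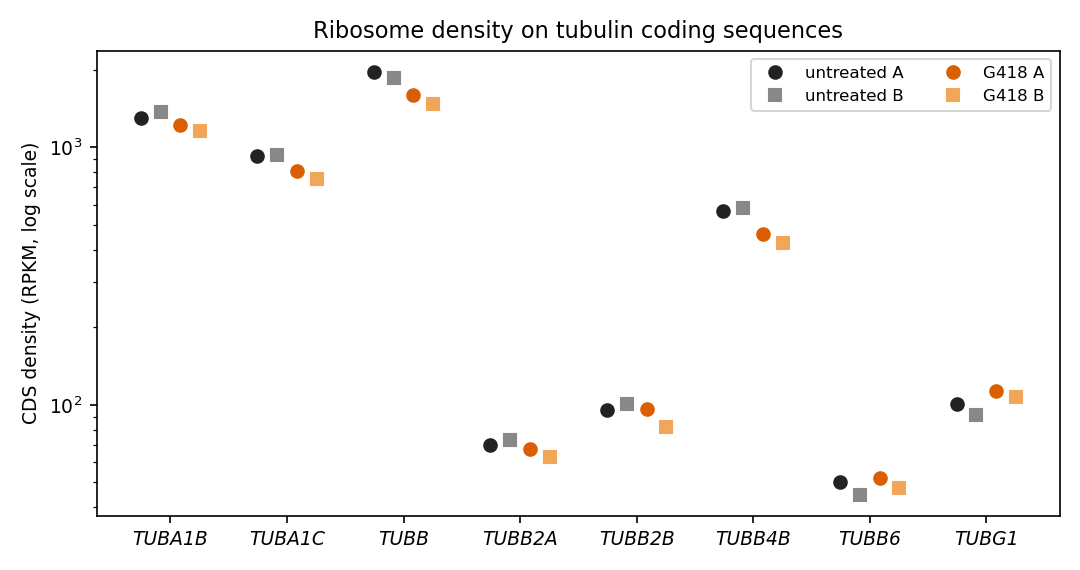
CDS density in RPKM (log axis) of the 8 tubulins in each of the 4 libraries, with untreated libraries in grey and black and G418 libraries in orange. TUBB is the highest in every library (1472 to 1964 RPKM) and TUBB6 the lowest, and the G418 points lie below the untreated points in TUBA1B, TUBA1C, TUBB, TUBB2A and TUBB4B.

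In edgeR's quasi-likelihood test on CDS counts, 3 of 8 tubulins fell and none rose, where 8.52% of 8494 transcripts were called in either direction 5.31% were called higher and 3.21% lower. TUBB4B fell by 0.44 on the log2 scale (SE 0.081, adjusted p = 0.00054), TUBB by 0.39 (SE 0.073, adjusted p = 0.00064) and TUBA1C by 0.32 (SE 0.078, adjusted p = 0.0064). TUBA1B had a log2 fold change of -0.24 (SE 0.078) and missed the threshold in the same test, with an adjusted p of 0.0502. TUBB2A and TUBB2B both had -0.20 (SE 0.10, adjusted p = 0.24 and 0.22). TUBB6 had -0.02 (SE 0.16) and TUBG1 0.12 (SE 0.094, adjusted p = 0.46). The median over the 8 was -0.22, against 0.0025 over all transcripts tested. With library totals in place of TMM, the tubulin values moved up by about the shift of the median of all transcripts to 0.086, the 3 calls held, and TUBB6 changed sign to 0.07. The calls of TUBB, TUBB4B and TUBA1C were lost when either G418 library was left out (adjusted p from 0.14 to 0.42), at log2 fold changes of -0.45 to -0.32.

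In a total over the genes, density on the α-tubulins (TUBA1B and TUBA1C) was 2264 ± 49.9 RPKM in untreated and 1971 ± 84.8 in G418 cells (SD, n = 2). On the 5 β-tubulins it was 2703 ± 58.7 and 2179 ± 128.1. Together they took 1.0% and 1.09% of all CDS reads in untreated A and B and 0.882% and 0.895% in G418 A and B. The α-to-β ratio of density was 0.812 and 0.864 in untreated and 0.895 and 0.915 in G418 cells, and the groups did not overlap. An exact two-sided permutation test gave p = 0.333 for each of these sums and ratios, which is the smallest that 2 against 2 libraries allow. TUBA1A is not in the α sum.

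Within the β-tubulins the proportions moved little. TUBB made up 71.6% and 69.9% of β-tubulin density in untreated and 70.1% and 70.5% in G418 cells, which overlap. TUBB4B made up 20.6% and 21.8% in untreated and 20.3% and 20.3% in G418 cells. TUBB2B made up 3.49% and 3.78% in untreated and 4.25% and 3.93% in G418 cells. Most of the β-tubulin density thus lay on TUBB and TUBB4B in every library. TUBB2A made up 2.55% and 2.75% against 2.96% and 3.01%, and TUBB6 1.83% and 1.69% against 2.30% and 2.28%. TUBA1B held 58.4% and 59.5% of the α-tubulin density in untreated and 60.2% and 60.6% in G418 cells. Except for TUBB these groups did not overlap, at the same exact permutation p of 0.333. Most CDS windows of TUBA1B, TUBA1C, TUBB, TUBB2A and TUBB2B also occur elsewhere. The shares and their shifts therefore depend on how shared reads were assigned.

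Readthrough rose under G418 in TUBA1B, TUBA1C and TUBB, and the 2 α-tubulins, so similar in their CDS, had different scores. The TUBB4B score was higher too, on 4 and 2 reads before the 3′TC in untreated A and B. TUBB4B reached the minimum number of reads for the later test only through its G418 reads, a choice that favours a rise. In TUBA1B, RRTS was 3.82% in untreated A and 4.87% in untreated B, and 41.9% and 46.9% in G418 A and B. These scores rest on 24 and 14 reads before the 3′TC in untreated and 232 and 225 in G418 cells, with exact Poisson 95% intervals in G418 cells of 36.7% to 47.7% and 41% to 53.5%. In TUBA1C it was 2.80% and 1.6% in untreated and 21.2% and 19.8% in G418 cells, from 16, 4, 99 and 79 reads. The intervals of TUBA1C in G418 cells, 17.2% to 25.8% and 15.7% to 24.7%, lie below those of TUBA1B in both libraries. Intervals cover counting error only, and the scores of both genes are divided by CDS densities made mostly of reads that fit more than 1 gene, so their levels depend on how the shared reads were assigned.

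Among the β-tubulins, TUBB had the lowest score above 0 and TUBB4B the highest ratio between conditions. RRTS of TUBB was 0.453% and 0.329% in untreated and 4.93% and 4.22% in G418 cells, from 10, 3, 83 and 60 reads. That of TUBB4B was 0.571% and 0.637% in untreated and 17.8% and 16.1% in G418 cells, from 4, 2, 96 and 73 reads. In both genes the G418 libraries had overlapping intervals and lay far above the untreated ones. Fewer windows were specific before the 3′TC than in the CDS in both genes, so the levels of their scores depend on read assignment.

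The scores of the β-tubulins of lower density rest on a handful of reads. TUBB2A had 1 and 0 reads before its 3′TC in untreated and 5 and 4 in G418 cells, which gave scores of 6.66%, 0%, 37.0% and 34.5%. TUBB2B had 2 and 0 reads in untreated and 3 and 7 in G418 cells, with scores of 3.55%, 0%, 5.62% and 16.8%. The G418 libraries lay above the untreated ones in both, with intervals that overlap between conditions. TUBB6 had no read in any library. At its depth, 3 reads would have given scores of 22.3%, 57.3%, 22.8% and 27.4%. TUBB6 CDS reads can come from the full-length transcript, which lacks this 3′UTR, so these scores set no detection limit for its readthrough. TUBG1 had 0 reads in both untreated libraries, where 3 reads would be 6.15% and 15.6%, and 9 and 4 reads in G418 cells, at scores of 17.5% and 9.0%.

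**Figure D3:**
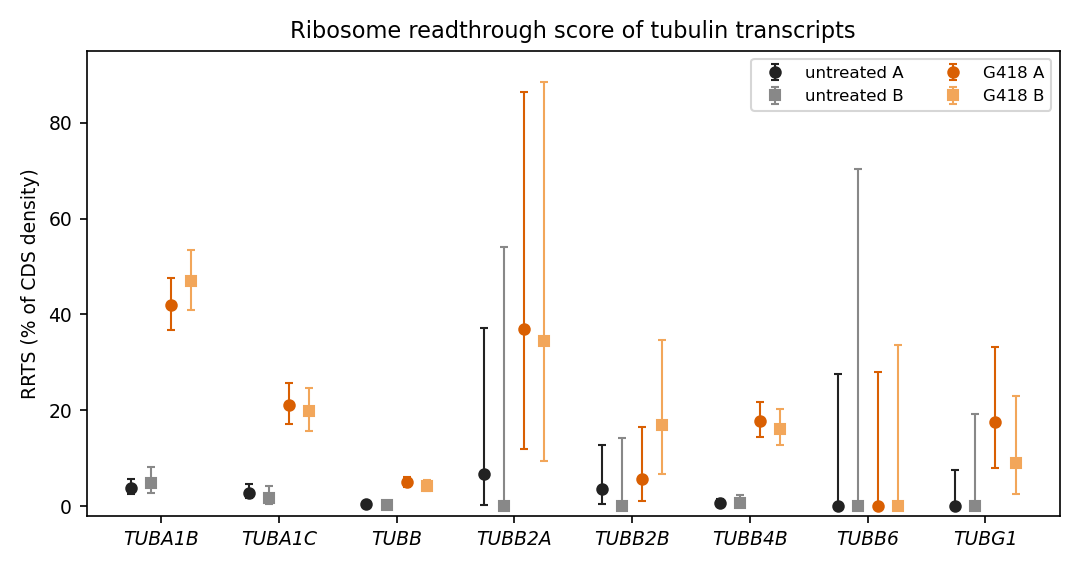
RRTS in percent of CDS density (y axis) of the 8 tubulins in each library, with exact Poisson 95% intervals of the reads before the 3′TC as bars. TUBA1B reaches 41.9% and 46.9% in the G418 libraries, TUBA1C and TUBB4B lie between 16.1% and 21.2%, TUBB stays below 5%, and the wide bars of TUBB2A, TUBB2B, TUBB6 and TUBG1 come from 0 to 9 reads a library.

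In edgeR's quasi-likelihood test of reads before the 3′TC with CDS reads as offset, 7 of the 8 tubulins had the 10 reads over the 4 libraries that the test required, and 6 of them were called higher and none lower. Over all 2827 transcripts tested, 82.6% were called higher, 0.0707% lower and 82.7% in either direction. TUBA1B, TUBA1C and TUBB reached 10 reads in untreated cells alone, whereas TUBB4B, TUBB2A, TUBB2B and TUBG1 passed this minimum only through their G418 reads, a choice that favours a rise, so nothing is read from the count. TUBB4B rose by 4.79 on the log2 scale (SE 0.38, adjusted p = 6.1e-35), TUBB by 3.44 (SE 0.34, adjusted p = 4.8e-23), TUBA1B by 3.4 (SE 0.20, adjusted p = 1.6e-60) and TUBA1C by 3.07 (SE 0.29, adjusted p = 1.2e-24). These 4 were called under every alternative tried. As ratios of pooled reads per CDS read, readthrough was 28.8 times higher in TUBB4B (exact 95% counting interval 13 to 79.7), 11.1 times in TUBB (6.27 to 21.3), 10.7 times in TUBA1B (7.65 to 15.3) and 8.44 times in TUBA1C (5.30 to 14.1).

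The calls of TUBG1 and TUBB2A depend on few reads, which had to lie mostly in G418 cells for these genes to be tested. TUBG1, with 0 untreated reads, was at least 3.07-fold higher in G418 cells against 3 reads over the untreated group (adjusted p = 0.0021 with edgeR, 0.055 with DESeq2, and 0.066 with edgeR without untreated A). Over its whole 3′UTR, TUBG1 had 0 and 0 reads in untreated and 26 and 6 in G418 cells, at least 7.56-fold higher on the same basis. TUBB2A had a pooled ratio of 7.83 (counting interval 1.08 to 343) and an adjusted p of 0.036 in edgeR's test, which rose to 0.053 when transcripts with 1 read or more were tested and to 0.069 without untreated B. TUBB2B, with a pooled ratio of 4.33 (0.922 to 40.6) and an adjusted p of 0.068 in edgeR's test, did not pass before the 3′TC and passed over the whole 3′UTR (adjusted p = 0.036).

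Set beside other transcripts with the same 4 nt stop codon (the NTC and the base after it), the tubulins spread widely. Pooled over both G418 libraries, TUBA1B scored 44.2%, above 86.8% of 363 other UAAU transcripts, whose median was 17.4%. TUBB2A scored 35.9%, above 87.3% of 750 UAAA transcripts with a median of 11.8%. Both lay high among their peers, TUBB2A on 9 reads, but with 12% and 14.9% of CDS windows specific, their scores and ranks depend on how shared CDS reads were assigned. TUBA1C at 20.6% was near the UAAC median of 22.4% (399 transcripts), and TUBB4B at 17.1% was at the UAGA median of 17.0% (443 transcripts). TUBB2B, with the same UAGA as TUBB4B, scored 10.5%. TUBB at 4.61% was above 30.5% of 489 UAAG transcripts with a median of 10.3%, and TUBG1 at 13.5% was above 33.2% of 1377 UGAG transcripts with a median of 20.03%. The scores of TUBB, with 24.6% of windows before the 3′TC specific, and TUBB2B, with 17.9% in the CDS, depend on read assignment too. TUBB6 at 0% stood beside a UGAA median of 27.7% over 971 transcripts, of which 10.8% were also at 0. The 0% of TUBB6 cannot be ranked among them, since its CDS reads can come from the full-length transcript, which lacks this 3′UTR.

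**Figure D4:**
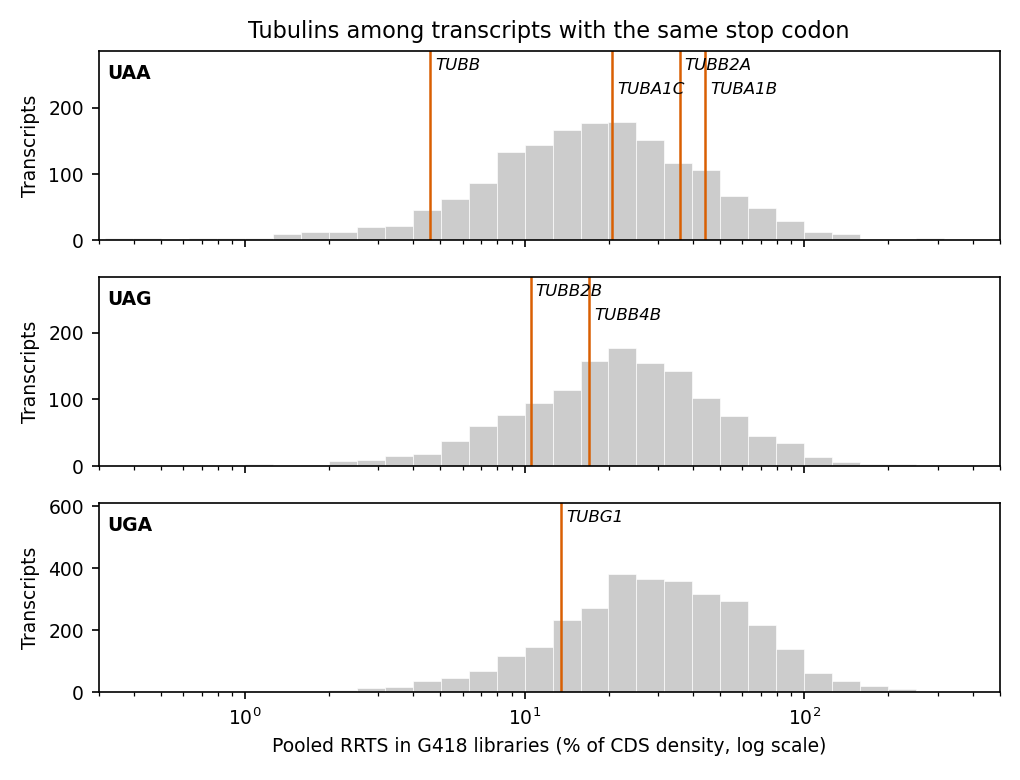
Number of transcripts (y axis) by pooled RRTS in the G418 libraries (x axis, log scale, percent of CDS density) for other transcripts ending in UAA, UAG and UGA, with the tubulins as orange lines. Transcripts at 0%, among them TUBB6, have no place on the log axis. TUBB2A and TUBA1B (35.9% and 44.2%) lie in the upper tail of UAA transcripts, TUBB (4.61%) in the lower tail, and TUBB2B, TUBB4B and TUBG1 near or below the middle of theirs.

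Beyond the next in-frame 3′TC, TUBA1B had reads in both conditions, most of them in G418 cells. The sequence around this 3′TC, chr12:49127883-49127912 on the minus strand, is shown because reads continue past it, with the 3′TC in capitals.

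TUBA1B 3′TC: tcagcttcagctTAActgacagacgttaaa

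TUBA1B had 22 and 5 reads behind the 3′TC in untreated and 193 and 139 in G418 cells. By density, the stretch behind the 3′TC, 116 nt long, held 42.7% and 16.6% of the level before it in untreated and 38.7% and 28.8% in G418 cells. Pooled over G418 libraries this was 33.8%, higher than in 96.3% of 1439 other transcripts with at least 20 reads before the 3′TC, whose median was 2.90%. This share is a mean over all that remains of the 3′UTR, whose length and number of further termination codons differ between transcripts, so the rank was not taken at matched length. Specificity was similar on both sides, with 92.4% of TUBA1B windows behind the 3′TC found nowhere else. In the other tubulins fewer reads lay behind the 3′TC. For TUBA1C the pooled share was 0.864% (29 reads over 1301 nt) and for TUBB it was 5.03% (51 reads over 893 nt). For TUBG1 the pooled share was 57.6%, on 17 and 2 reads behind the 3′TC in G418 A and B and 9 and 4 before it. By library the TUBG1 share was 74.5% and 19.7%. With fewer than 20 reads before the 3′TC, its rank among the other transcripts is not given. For TUBB2A the pooled share was 14.4% on 9 reads. The TUBA1B 3′UTR held 2 more in-frame termination codons, the next ending 159 nt after the NTC, and which frame the reads behind the 3′TC lie in was not tested.

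The 5′UTR is another mostly specific region of the TUBA1B mRNA, and its reads per CDS read fell under G418. TUBA1B had 6.45 and 6.38 5′UTR reads per 100 CDS reads in untreated (992 and 449 reads) and 3.44 and 3.30 in G418 cells (466 and 388 reads). Per length, its 5′UTR density was 95.9% and 94.8% of the CDS density in untreated and 51.1% and 49.1% in G418 cells. The groups were far apart and the libraries of each close together. TUBA1C had 1.79 and 1.95 reads per 100 CDS reads in untreated and 1.30 and 1.2 in G418 cells. TUBB had 9.20 and 9.05 in untreated and 11.5 and 10.3 in G418 cells. The groups did not overlap in either gene, with G418 lower in TUBA1C and higher in TUBB.

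In edgeR's quasi-likelihood test of 5′UTR reads per CDS read, a comparison added after the data were seen, 1 of 6 tubulins was called, where 1.72% of 3656 transcripts were called, 1.7% lower and 0.0274% higher. TUBA1B fell by 0.93 on the log2 scale (SE 0.094, adjusted p = 0.00016), and was called under each of 6 alternatives at -0.96 to -0.90. TUBA1C had -0.57 (adjusted p = 0.19), TUBB 0.25 (adjusted p = 0.057), TUBB2B 0.35 (adjusted p = 0.71), TUBB4B -0.59 (adjusted p = 0.37) and TUBG1 -0.35 (adjusted p = 0.85) in the same edgeR test, against a median of -0.16 over all transcripts tested. TUBB did not pass with DESeq2 (adjusted p = 0.54) or with the library letter as a replicate block (adjusted p = 0.11, edgeR). When 1 library was left out, the TUBB log2 fold change ranged from 0.17 to 0.33. Since 12% of TUBA1B CDS windows are specific and 91.1% of its 5′UTR windows are, the numerator and the denominator of its ratio differ in how many reads could come from other genes, and the part of that in the fall was not tested.

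**Figure D5:**
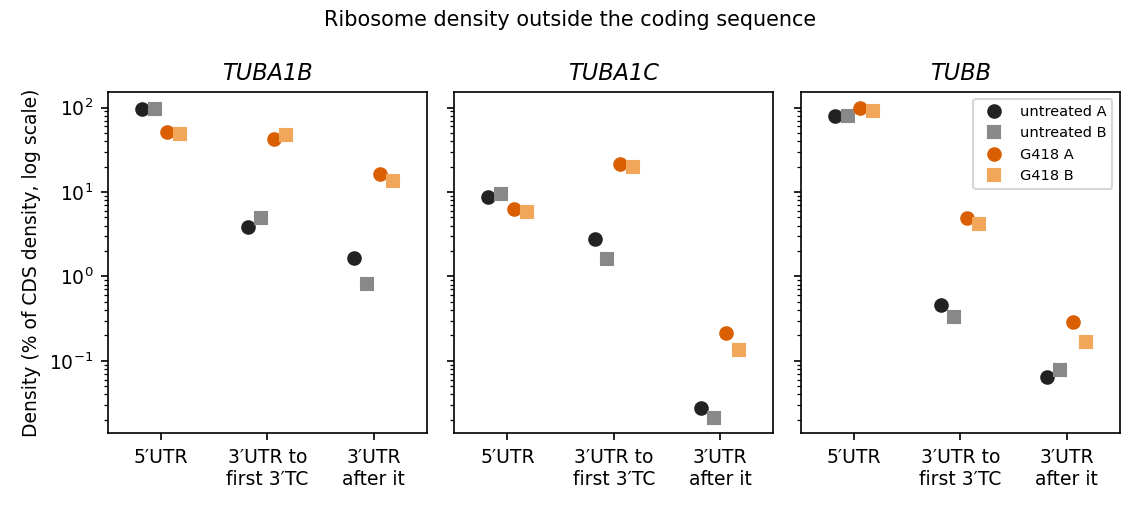
Read density in the 5′UTR, in the 3′UTR before the 3′TC and behind it, in percent of CDS density (log axis), for TUBA1B, TUBA1C and TUBB in each library. In TUBA1B the G418 libraries are lower than the untreated ones in the 5′UTR (49.1% and 51.1% against 94.8% and 95.9%) and higher in both parts of the 3′UTR, and its density behind the 3′TC is far above that of TUBA1C and TUBB.

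Among the remaining tubulin genes, 6 of 12 listed were tested for CDS reads and 1 was called, beside the 8.52% of all transcripts. TUBA8, a divergent α-tubulin, measured 15.6 and 16.2 RPKM in untreated and 10.2 and 8.42 in G418 cells and fell by 0.83 on the log2 scale (SE 0.16, adjusted p = 0.0010, edgeR). Its CDS counts were 184 and 83 in untreated and 112 and 84 in G418 cells, with no read in the 5′UTR or before the 3′TC. The specificity of its CDS windows was not examined, so the part of reads shared with other tubulins in this fall was not tested. None of the 12 had enough reads to be tested for readthrough.

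In the lists of genes that act on tubulin, the shares called in CDS reads are to be read beside the 8.52% of all transcripts. Of 12 genes for autoregulation and tail modification that were tested, 1 rose and none fell. TTL, the ligase that adds tyrosine to the α-tubulin tail, measured 4.48 and 5.37 RPKM in untreated and 10.5 and 10.9 in G418 cells, and rose by 1.10 on the log2 scale (SE 0.22, adjusted p = 0.0011, edgeR). TTC5, which recognises nascent tubulin on the ribosome in autoregulation, measured 30.3 and 29.9 RPKM in untreated and 26.6 and 24.0 in G418 cells and was not called. Of 12 folding genes, PFDN5, a subunit of the prefoldin chaperone, was called. It measured 554 and 482 RPKM in untreated and 460 and 414 in G418 cells and fell by 0.32 on the log2 scale (SE 0.089, adjusted p = 0.021, edgeR). None of 8 γ-tubulin ring complex genes and none of 12 genes of microtubule-associated proteins was called by edgeR. The median log2 fold changes were 0.07 for autoregulation and tail modification, -0.08 for folding, 0.16 for the ring complex, -0.10 for microtubule-associated proteins and -0.14 for the remaining tubulins, beside 0.0025 for all transcripts.

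In readthrough, 6 of 7 folding genes, 3 of 5 ring complex genes, 2 of 2 genes of autoregulation and tail modification and 3 of 3 of microtubule-associated proteins were called higher by edgeR's test, beside 82.6% of all transcripts. Of the genes named below, MZT1 alone had 10 reads or more in untreated cells, and the others passed the minimum only through their G418 reads, so nothing is read from these counts. PFDN5 scored 0.869% and 0% in untreated and 16.7% and 17.9% in G418 cells (log2 fold change 4.70, SE 0.46), and VBP1, another prefoldin subunit, 1.70% and 1.68% against 20.5% and 31.3% (3.84, SE 0.53). In both genes the groups were far apart. PFDN4 of the same chaperone and ARL2, a small GTPase that works with the folding cofactors, rose by 3.0 (SE 0.90) and 3.23 (SE 1.13), on 11 and 12 reads for PFDN4 and 9 and 5 for ARL2 in G418 A and B. MZT1, a small subunit of the ring complex, scored 10.5% and 11.4% in untreated and 97.5% and 91.8% in G418 cells (log2 fold change 3.13, SE 0.27). TUBGCP2 and TUBGCP3, which form the core of the complex, had 0 reads in both untreated libraries and 5 in each G418 library, just at the minimum of 10. The microtubule-associated proteins tested were the plus-end binding proteins MAPRE1, at 0.963% and 1.36% in untreated and 14.5% and 15.7% in G418 cells, and MAPRE2, at 1.84% and 1.31% against 34.0% and 30.2%, and the polymerase CKAP5, with 1 and 1 reads against 8 and 11. TTLL12, a relative of the tail ligases, had 0 reads in both untreated libraries against 7 and 8, and TTC5 had 0 and 1 reads against 6 and 3. None of these lists held a gene that was called for 5′UTR reads per CDS read.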

How the data were processed

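Ribosome profiling libraries of untreated and G418-treated HEK293T cells were used, 2 per condition. Per the paper's methods, the authors removed duplicates by molecular identifier, trimmed reads, discarded noncoding RNA, aligned RPFs of full length to hg38 with STAR, kept 1 alignment for reads that fit several places, and used 1 transcript per gene. Submitters' notes also name CASAVA 1.8. The deposited counts are RPFs per region without normalization. The deposited RPM values are these reads scaled to library size by the authors, and the deposited RPKM values divide these by region length, less 6 nt after the NTC. The deposited ratio values are RRTS. The deposited 5′UTR densities were taken as a score and not used.

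Whole reads were recovered from RPM (100% of values whole within 0.01). The deposited counts equal these reads or are 1 lower. Deposited CDS counts were tested with edgeR 4.0.16 (quasi-likelihood, TMM, its filter on low counts). Readthrough was tested on recovered reads with log(CDS reads + 0.5) as offset, for transcripts with at least 10 reads before the 3′TC and 128 mRNA reads per condition. The 5′UTR comparison, at least 20 5′UTR and 128 CDS reads, was added after the data were seen. P-values were adjusted by Benjamini-Hochberg over all transcripts tested, with a threshold of 0.05. DESeq2 1.42.0, other filters and scalings, the replicate block and leaving out each library were alternatives. The tests were run on simulated data in which all genes were given the same spread between libraries. In these data 200 genes differed by a large factor, all with more reads than TUBB2A, TUBB2B and TUBG1 had before the 3′TC. Of the 200, edgeR called 99.5% in CDS reads (3.86% false calls), 95.5% in RRTS (2.05%) and 96% in 5′UTR reads (4.95%). Whether these rates hold for differences as small as those of the tubulins in CDS reads (log2 fold change -0.44 to 0.12) was not tested. Whether the RRTS rates hold where 82.6% of transcripts are called higher, as between these libraries, was not tested either. The same goes for genes with as few reads before the 3′TC as TUBB2A, TUBB2B and TUBG1.

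Sequences and coordinates are from hg38 with GENCODE 44. All 8 stop codons and 3′TC distances equal the deposited ones. TUBA1C has another transcript version there, with a 5′UTR of 100 nt where the deposited length is 269 nt, and its 5′UTR density rests on the latter. Its 5′UTR windows were taken from the shorter 5′UTR, so the specificity of the counted region was not measured. Windows of 28 nt were searched on both strands of the genome and in all transcripts. Members and gene lists were chosen with earlier results of these data known. All tubulins are named, and other genes where called, at most 4 per list by size of fold change. TTC5 in CDS reads was named after its values were seen. Software was Python 3.11.15, R 4.3.3, Biopython 1.88 and matplotlib 3.10.9. The libraries of each condition are biological replicates per the paper's methods, and p-values measure the spread between them.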

Additional observations from a re-analysis of the deposited data

How the results depend on the processing

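The rises of TUBA1B, TUBA1C, TUBB and TUBB4B in RRTS and the fall of TUBA1B in 5′UTR reads per CDS read kept their direction and call under every alternative run. Of these, TUBB4B reached the minimum number of reads for the RRTS test only through its G418 reads, a choice that favours a rise. It had 4 and 2 reads before the 3′TC in untreated A and B, and 96 and 73 in G418 A and B. With 2 libraries per condition, untreated B the shallowest, and 0 to 9 reads per library before the 3′TC, TUBB2A, TUBB2B and TUBG1 are limited by depth. The 3′UTR of the TUBB6 row lies outside the full-length transcript, so its score does not describe readthrough of that transcript. The cause of the changes below was not tested.

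For CDS reads, 724 transcripts were called (451 higher, 273 lower). DESeq2 called 250 (113 higher, 137 lower), library totals 940 (800 higher, 140 lower), and leaving out 1 library gave 73 to 2082. Tubulins called in CDS reads numbered 3, and 0 to 6 when 1 library was left out: 0 without either G418 library and 6 without untreated A. TUBA1B passed in CDS reads by edgeR with no filter (adjusted p = 0.04999) and with recovered reads (0.042). It did not pass with DESeq2 (adjusted p = 0.12) or with library totals (adjusted p = 0.20, edgeR). When 1 library was left out, the TUBA1B log2 fold change in CDS reads ranged from -0.33 to -0.15. TUBB6 changed sign in CDS reads with library totals (0.066) and without untreated A, with a range of -0.033 to 0.0080 when 1 library was left out. For RRTS, 2338 transcripts were called, 1409 with DESeq2, 1538 with at least 20 reads and 1332 to 2179 when 1 library was left out. The median log2 fold change over all transcripts tested was 3.18, and 4.79 without untreated A, where fewer transcripts (2129) were tested. DESeq2 gave no adjusted p for TUBB2A. For 5′UTR reads per CDS read, 63 were called, 41 with DESeq2 and 7 to 296 when 1 library was left out. TUBG1 changed sign there without untreated B, with a range of -1.20 to 0.34 when 1 library was left out. The change of TUBB's share of β-tubulin density, -0.46 percentage points, ranged from -1.27 to 0.35 and turned without untreated A.

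Libraries of the conditions share only a letter. Deviations of the A libraries from their group means correlated at 0.198 over 7032 genes. With the letter as a replicate block, 1070 transcripts were called for CDS reads, 1854 for RRTS and 90 for 5′UTR reads per CDS read. TUBA1B was then called in CDS reads (adjusted p = 0.028, edgeR) and TUBB2A was not called in RRTS (adjusted p = 0.18, edgeR), and no other tubulin's call changed with the block.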
